A study of Mus musculus with 6 samples.

Results

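Narrow gene-end regions are 3028 short stretches of the mouse genome that carried acetylated histone H3 lysine 27 (H3K27ac) beside a protein-coding gene in every library of the series. They were chosen by their own peak calls. Peaks of all 6 lists on chromosomes 1 to 19 and X were merged on any overlap (1 bp or more), which gave 104143 regions. Of these, 5489 had a peak in all 6 lists, and 3028 of the 5489 lay within 1000 bp of an end of a gene in RefSeq GRCm38 and were under 2500 bp wide. The other shared regions were 115 gene-end regions of at least 2500 bp and 2346 distal regions. Detection, place and width are therefore given as descriptions, with no test. The mark was mapped by CUT&RUN, in which an antibody ties a nuclease to the mark and the cut fragments are sequenced, in hematopoietic stem cells taken from bone marrow. One group was 3 mice with wild type Ppp2ca (WT) and the other 3 mice deficient in Ppp2ca (KO). The deleted part of Ppp2ca, the way it was deleted and the mice's strain, age and sex were not stated in the labels. The comparison asks at which H3K27ac sites loss of Ppp2ca has an effect.

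H3K27ac is laid down by the acetyltransferases CBP and p300 and marks promoters and enhancers in use, on the nucleosomes that flank the open DNA where transcription starts. Genes that nearly every cell uses, for ribosomes, splicing or respiration, tend to start in short CpG-rich promoters, which stay unmethylated and are read by broadly present factors of the SP, ETS, NRF1 and YY1 kinds. Ppp2ca encodes the catalytic subunit, alpha form, of protein phosphatase 2A (PP2A), which removes phosphate from serine and threonine together with a scaffold subunit and one of many regulatory subunits.

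The promoters below show the kinds of DNA that lie in these regions. Each is the RefSeq GRCm38.p6 window from 250 bases before to 50 bases after a transcription start, printed 5′ to 3′ on the gene's own strand. Capitals mark letters found on either strand: the GC box GGGCGG of the SP and KLF factors, the ETS core CCGGAA, the YY1 core AAGATGGCG, the NRF1 core GCATGCGC, the cAMP response element TGACGTCA, the CCAAT box of the factor NFY, the E-box CACGTG of the MYC and USF factors and the RUNX letters TGTGGT. A match on the opposite strand shows as the reverse complement of these letters, so a GC box can read CCGCCC. Neighbouring motifs can touch, as an E-box and CCAAT do in the Runx1 window. A match describes letters and is not a binding site.

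Ppp2ca (chr11:52098574-52098873, + strand), the gene altered in the KO mice, has 34 CpG dinucleotides, a cAMP response element and 2 GC boxes.
Ppp2ca: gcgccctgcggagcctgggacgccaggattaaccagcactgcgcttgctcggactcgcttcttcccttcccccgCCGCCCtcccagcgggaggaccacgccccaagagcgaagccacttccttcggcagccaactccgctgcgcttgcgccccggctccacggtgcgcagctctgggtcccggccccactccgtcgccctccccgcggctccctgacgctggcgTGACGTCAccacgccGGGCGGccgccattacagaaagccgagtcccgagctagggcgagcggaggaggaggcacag
Tardbp (chr4:148626947-148627246, − strand) and 0610009B22Rik (chr11:51688585-51688884, − strand) were among the 10 regions with the highest mean rank, the rank being a region's place by fold among the shared regions of a library. The first has 3 GC boxes, and the second has a YY1 core, 2 NRF1 cores and a GC box.
Tardbp: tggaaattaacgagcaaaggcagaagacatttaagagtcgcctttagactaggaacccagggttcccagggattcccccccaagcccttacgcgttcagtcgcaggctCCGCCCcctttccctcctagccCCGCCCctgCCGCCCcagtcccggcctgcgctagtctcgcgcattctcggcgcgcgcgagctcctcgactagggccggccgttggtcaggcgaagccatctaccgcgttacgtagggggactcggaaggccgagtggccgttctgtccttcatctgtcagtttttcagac
0610009B22Rik: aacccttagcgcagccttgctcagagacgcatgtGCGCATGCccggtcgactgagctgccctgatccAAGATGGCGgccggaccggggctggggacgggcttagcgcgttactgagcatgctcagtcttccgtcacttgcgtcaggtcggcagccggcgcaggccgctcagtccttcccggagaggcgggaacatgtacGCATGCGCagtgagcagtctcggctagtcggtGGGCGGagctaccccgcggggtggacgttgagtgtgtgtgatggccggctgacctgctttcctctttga
Uxt (chrX:20961929-20962228, − strand), Mtx1 (chr3:89213858-89214157, − strand) and Slc25a42 (chr8:70212232-70212531, − strand) had the 3 widest rises in rank from WT to KO. Uxt and Mtx1 each hold an ETS core and a GC box, Mtx1 also a YY1 core, and Slc25a42 holds 5 CCAAT boxes and a GC box.
Uxt: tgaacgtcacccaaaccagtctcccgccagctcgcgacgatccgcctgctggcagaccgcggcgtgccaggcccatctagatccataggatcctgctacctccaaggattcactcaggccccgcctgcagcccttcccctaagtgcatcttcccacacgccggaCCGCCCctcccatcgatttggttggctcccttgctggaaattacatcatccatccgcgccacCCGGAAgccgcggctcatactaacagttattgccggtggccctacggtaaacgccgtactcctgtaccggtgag
Mtx1: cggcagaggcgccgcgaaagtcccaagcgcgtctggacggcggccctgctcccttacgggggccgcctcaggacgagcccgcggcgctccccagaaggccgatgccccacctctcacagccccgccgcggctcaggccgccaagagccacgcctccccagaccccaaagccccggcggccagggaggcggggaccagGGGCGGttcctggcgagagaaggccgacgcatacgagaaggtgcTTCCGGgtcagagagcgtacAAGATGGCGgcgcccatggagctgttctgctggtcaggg
Slc25a42: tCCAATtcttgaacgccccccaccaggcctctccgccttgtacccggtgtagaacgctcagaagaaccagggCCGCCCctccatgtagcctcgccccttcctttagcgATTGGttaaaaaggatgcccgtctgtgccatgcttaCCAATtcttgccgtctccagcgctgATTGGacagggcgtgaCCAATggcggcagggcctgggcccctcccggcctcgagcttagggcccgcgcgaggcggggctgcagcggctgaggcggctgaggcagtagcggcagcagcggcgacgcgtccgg
Etnk1 (chr6:143166980-143167279, + strand) was among the 5 widest falls in rank, and its window holds 38 CpG dinucleotides and 3 GC boxes.
Etnk1: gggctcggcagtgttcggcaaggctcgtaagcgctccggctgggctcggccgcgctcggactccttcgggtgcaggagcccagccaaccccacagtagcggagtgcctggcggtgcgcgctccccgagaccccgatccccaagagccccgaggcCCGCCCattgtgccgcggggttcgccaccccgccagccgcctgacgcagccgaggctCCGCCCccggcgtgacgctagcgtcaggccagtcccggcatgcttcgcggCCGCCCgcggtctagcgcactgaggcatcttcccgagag
Runx1 (chr16:92826025-92826324, − strand), a blood stem cell transcription factor, was picked after its values had been seen, as a CpG-poor contrast, with 2 CpG dinucleotides, 2 RUNX matches, 2 CCAAT boxes and an E-box.
Runx1: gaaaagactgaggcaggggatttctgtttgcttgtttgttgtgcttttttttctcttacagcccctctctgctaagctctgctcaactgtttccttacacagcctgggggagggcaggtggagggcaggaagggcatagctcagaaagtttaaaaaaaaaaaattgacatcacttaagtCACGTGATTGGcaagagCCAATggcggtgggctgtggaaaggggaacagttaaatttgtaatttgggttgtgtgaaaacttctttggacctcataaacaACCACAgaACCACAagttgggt

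The 6 lists rest on few fragments. Read totals are not in the lists, and the genome background recovered from them, the fragments expected at a base from the genome-wide total, was 0.499, 0.584 and 0.498 in WT replicates 1 to 3 and 0.738, 0.465 and 0.827 in KO replicates 1 to 3. KO replicate 2 was thus below every WT library. This background was the most common value solved among 4000 sampled peaks per list. It held in 23.875%, 37.85% and 24.975% of them in WT replicates 1 to 3. In KO replicates 1 to 3 it held in 29.775%, 8.325% and 7.05%. It thus rests on fewer peaks in KO replicates 2 and 3. Every level below divides by it, and the part of this limit in the KO over WT ratios was not tested. The label of the cells was checked against marker genes. Of 20 genes that mark blood stem cells and early progenitors, 3 had a narrow gene-end region (Lyl1, Runx1 and Tal1), and 10 had no gene-end peak in any library, among them Cd34, Erg, Flt3, Gata2, Hlf, Hoxa9, Ly6a, Mecom and Slamf1. Between 5 and 8 of the 20 had a gene-end peak in a given library. Of the markers of other cells, 0 of 8 for T and NK cells, 0 of 6 for B cells, 1 of 8 for myeloid cells (Csf1r), 0 of 7 for erythroid cells, 2 of 5 for megakaryocytes (Gp1ba and Itga2b) and 1 of 8 for endothelium and stroma (Pecam1) had a narrow region. In that order, 5, 2, 2, 2, 0 and 6 of them had no gene-end peak in any library. A given library had a gene-end peak at 2 to 5 of the myeloid, 2 to 4 of the erythroid and 2 to 5 of the megakaryocyte markers. For T and NK cells this was 0 to 2, for B cells 0 to 3 and for endothelium and stroma 1 to 2. Thus 10 of these 20 stem cell and early progenitor markers lacked a gene-end peak in every list. No label ties a library to a numbered animal, so the p-values measure the spread between these libraries, which may be partly technical.

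The regions were 467 to 2497 bp wide with a median of 1580 bp and quartiles of 1323.5 and 1859 bp, and together covered 4824.98 kb. They reached 3720 of 21627 protein-coding genes (17.2%). A single gene lay in reach of 2279 regions, and 749 (24.7%) had at least 2 genes in reach. The most crowded region, on chromosome 17 (chr17:47687406-47688391), had 5: Frs3, Gm20517, Prickle4, Tomm6 and Usp49. At the width limit, the widest regions inside were those of Fam32a at 2497 bp and Arhgap30 and Nectin4 at 2491 bp. Just outside stood Ezh2 at 2507 bp, Phf3 at 2511 bp and Nop58 at 2512 bp.

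Most of the regions sat on gene starts. The gene table has no strand, so starts were taken from RefSeq promoter windows, which covered 3098 of the 3720 genes. A RefSeq start lay inside 2329 regions (76.9%). Counted by gene ends, the start-side end of a gene lay in reach of 2478 regions and a far-side end alone in reach of 67, while 483 had no gene with a strand in the table. Starts on both strands lay in 397 regions (13.1%). In 341 of these the genes ran away from each other, head to head, with a median of 156 bp between the starts (quartiles 76 and 298 bp). The head-to-head regions had a median width of 1737 bp, against 1567 bp where starts lay on 1 strand. Chromosome 11 held the most regions per gene, 19.1 for every 100 genes, and X the fewest, 5.38 for every 100. Exons and introns were not analysed here.

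Signal at the regions was higher in the KO than in the WT libraries. The level used here is the number of fragments piled up at the summit of a region's strongest peak, divided by the genome background of that library. The median summit pileup over the 3028 regions was 7, 8 and 7 fragments in WT replicates 1 to 3 and 22, 14 and 24 in KO replicates 1 to 3. As a level this was 14.03, 13.7 and 14.1 times the genome background in the WT (mean 13.9 ± 0.199, SD, n = 3) and 29.8, 30.1 and 29.0 in the KO (29.6 ± 0.562, SD, n = 3), a ratio of 2.13. Pileups are whole numbers of fragments, so these medians move only in coarse steps, and their SD cannot show agreement finer than a step. The KO and WT libraries did not overlap in this median, and KO replicate 2, the library with the lowest genome background, had the highest. A region had to be called in every library to be counted, and this limit acted mainly through the WT lists, whose pileups lay closer to the lowest that was called. Without WT replicate 1, 2 or 3 the set grew from 3028 to 3578, 3420 and 3611 regions, and without KO replicate 1, 2 or 3 it was 3011, 3058 and 3029. Low values are thus missing from the WT levels more than from the KO levels, and the part of this in the ratio was not tested.

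**Figure D1:**
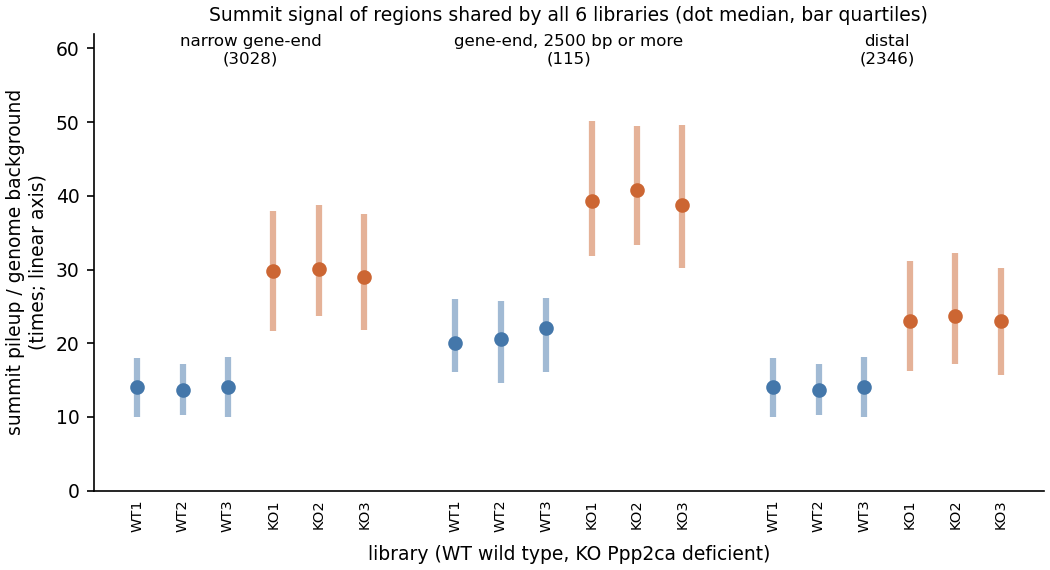
Summit pileup over genome background (linear axis, times) of the shared regions in each of the 6 libraries; dots are medians over regions and bars run from the lower to the upper quartile. In the narrow gene-end regions the 3 WT medians lie between 13.7 and 14.1 and the 3 KO medians between 29.0 and 30.1. In the distal regions the WT medians are the same, being whole-number pileups of 7, 8 and 7 fragments in both. The distal KO medians lie between 23.0 and 23.7.

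Single regions followed the same pattern. The ratio of the KO to the WT mean level had a median of 2.08 over the regions (quartiles 1.82 and 2.40) and ran from 0.537 to 4.48. It reached 2 in 1758 regions (58.1%) and 3 in 129, and was below 1 in 14. In 2835 of 3028 regions (93.6%) every KO library stood above every WT library, beside 84.4% of all 5457 shared regions with a solved pileup, and in 1 region every KO library stood below, beside 0.641%. A limma fit of the log2 level across all shared regions, added after the data had been seen, called 2891 regions higher (95.5%, beside 86.0% of all) and 1 lower (beside 0.623%) at an adjusted p of 0.05. The other shared regions were higher in the KO as well: the median ratio was 2.01 in the gene-end regions of at least 2500 bp and 1.67 in the distal regions.

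The size of this difference depends on the background used. Around the summits of these regions, the local background that the caller divided by was a median of 1.88, 1.85 and 1.89 times the genome background in the WT libraries and 4.36, 4.34 and 4.38 times in the KO libraries. With the authors' fold, which divides by that local value, the median KO over WT ratio was 1.25, and every KO library stood above every WT library in 1253 regions. This count was made over the narrow regions only, so it cannot be set beside a share of all shared regions. Whether this local signal belongs to the regions themselves or to the DNA around them was not tested. From peak lists of bulk cells, more cells with the mark, more mark per cell and a larger share of reads in marked DNA cannot be told apart.

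Called length was also greater in the KO libraries, but within a genotype it did not follow the level. KO replicate 2 had the highest level of the KO libraries and the shortest called length. WT replicate 2 had the lowest level of the WT libraries and the longest called length. Within a genotype these median levels differ little and move only in coarse steps, because pileups are whole numbers. The part of depth in called length was not tested. Peaks covered a median of 563, 636 and 574 bp of a region in the WT libraries (591 ± 39.4, SD, n = 3) and 1258.5, 1039.5 and 1297 bp in the KO libraries (1198.33 mean). That was 37.3% to 41.0% of a region's width in the WT and 66.9% to 84.1% in the KO. Every KO library was longer than every WT library in 2076 regions (68.6%, beside 59.4% of all shared regions), and shorter in 0, beside 0.255%. The caller split a region into several peaks in 28.1% to 29.5% of regions in the WT, and in 17.4%, 30.6% and 14.6% in KO replicates 1 to 3, so KO replicate 2 resembled the WT in this respect. The q-value of the strongest peak was 0.05 or lower in 1446, 1714 and 1450 regions in the WT and in 3007, 2913 and 3016 in the KO. In 728 regions all 6 libraries passed, and in 625 no WT library did, counts made over the narrow regions only. All KO and no WT library passed in 548 regions (18.1%, beside 18.3% of all), and the reverse held in 0, beside 0.0%. The q-value depends on depth.

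Ppp2ca itself has a narrow region of 1691 bp over its start (chr11:52098444-52100134). Its level was 32.1, 18.8 and 26.1 times the genome background in WT replicates 1 to 3 and 56.9, 58.1 and 58.0 in KO replicates 1 to 3, so the groups did not overlap and the KO libraries lay close together. The log2 difference was 1.20 with an SE of 0.19 (limma adjusted p = 3.33e-06), a ratio of 2.25 near the median of all the regions. The mark over the start does not check the deletion, because the deleted part is not given.

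The regions at the ends of the range were picked out after their values had been seen. The highest ratio, 4.48, belonged to the shared region of Sirt2, a protein deacetylase, and Nfkbib, an inhibitor of NF-kappa-B (chr7:28765722-28767125). Its level was 10.0, 10.3 and 10.0 in the WT and 43.4, 53.8 and 38.7 in the KO, a log2 difference of 2.15 (SE 0.22, limma adjusted p = 1.43e-08). Noct, a circadian deadenylase-like protein, followed with a ratio of 4.01, and Ap1g1, a subunit of a clathrin adaptor, with 3.94. The KO and WT libraries did not overlap in any of the 3. At the other end, the region of Gm51573 (chr8:55373306-55374806) was the single region lower in every KO library, at 14.03, 20.5 and 16.1 in the WT and 6.78, 10.8 and 9.67 in the KO. Its log2 difference was −0.91 (SE 0.26, limma adjusted p = 0.00233). The other 13 regions with a ratio below 1 did not pass the test. Among them were Itga2b, the megakaryocyte integrin alpha IIb, at 13.9 ± 2.002 in the WT and 12.03 ± 2.14 in the KO (SD, n = 3), Abcg1, a cholesterol exporter, and Lalba, a milk protein.

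Because the level moved nearly everywhere, the order of the regions was compared next. Each library's regions were ranked by the authors' fold among the 5489 shared regions, from 0 to 100, so that a shift common to all of them drops out. By this measure no region passed: limma called 0 of 3028 higher and 0 lower at an adjusted p of 0.05 (beside 0.0% of all shared regions in each direction), and the smallest adjusted p was 0.197. At an unadjusted p under 0.05, 297 regions were higher (9.81%, beside 7.47% of all) and 157 lower (5.18%, beside 8.31%). Without KO replicate 1, 2 or 3 the 297 became 171, 172 and 157. Every KO rank stood above every WT rank in 384 regions (12.7%, beside 9.95%) and below in 248 (8.19%, beside 12.4%). The median difference was 4.62 points, with quartiles of −9.81 and 20.1, and the SE of a single region had a median of 15.4 points. The median difference was −18.6 points in the wider gene-end regions and −6.33 in the distal ones. The regions' median rank was 53.8, 55.2 and 53.8 in the WT and 60.8, 60.5 and 61.1 in the KO, with no overlap between the groups. With the log2 fold centred on the shared regions in place of ranks, 38 were called higher and 13 lower, and with normal scores 1 and 0. These alternative calls were counted over the narrow regions only, with no share of all shared regions to set beside them.

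The 5 widest rises were chosen among regions whose KO and WT ranks do not overlap, since no region passed the rank test. Uxt, a prefoldin-like chaperone, ranked 1.86, 5.16 and 28.6 in the WT and 85.4, 95.3 and 85.5 in the KO, a rise of 76.9 points (SE 15.2, limma adjusted p = 0.197). Its level was 6.01, 6.85 and 10.0 in the WT and 25.7, 32.3 and 23.0 in the KO. Of the others, Mtx1, Slc25a42 and Eral1 serve mitochondria, in protein import, coenzyme A transport and ribosome assembly, and Arrdc2 is an arrestin-domain protein. Their WT levels lay between 5.14 and 10.3 and their KO levels between 18.97 and 31.4. The WT pileups behind these 5 regions were 3 to 6 fragments. In the level test all 5 passed, beside 95.5% of the narrow regions and 86.0% of all shared regions called higher. Level and fold rest on the same peaks, so the level test is no separate support for these rises.

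The 5 widest falls were chosen in the same way. Hs1bp3 ranked 88.3, 44.5 and 81.2 in the WT and 2.06, 12.9 and 8.07 in the KO, a difference of −63.7 points (SE 15.4, limma adjusted p = 0.207). Its level was 28.1, 18.8 and 28.1 in the WT and 17.6, 25.8 and 19.3 in the KO, with overlap. A630001G21Rik had a KO over WT ratio of 1.29 and did not pass the level test. Etnk1, an ethanolamine kinase, did (22.2 ± 3.32 in the WT and 32.1 ± 0.564 in the KO, SD, n = 3, limma adjusted p = 0.0134).

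**Figure D2:**
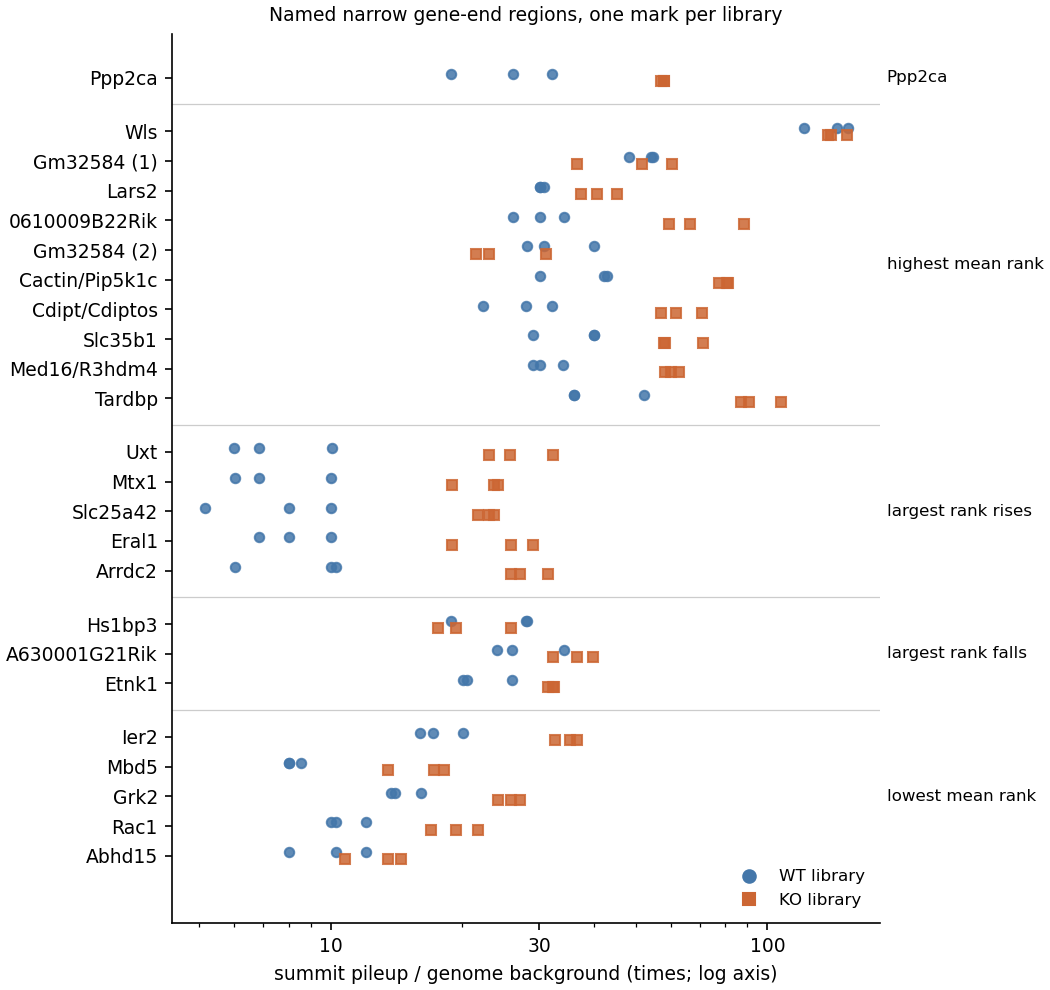
Summit pileup over genome background (log axis, times) of named narrow gene-end regions, 1 mark per library, circles for WT and squares for KO; 3 of the 5 widest rank falls are drawn. In Ppp2ca, the rank rises and most strong regions the marks of the groups are apart; in Wls, both Gm32584 regions and Hs1bp3 they overlap.

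The strongest regions by mean rank fell into 2 kinds. In 4 of the 10 the region was short, at 467 to 630 bp, and the KO over WT ratio was low. No start of the RefSeq promoter windows lay inside these 4, while each of the other 6 held a start. Whether the signal of the 4 belongs to a promoter was not tested. Wls, which carries Wnt proteins to the cell surface, had levels of 144, 122 and 153 in the WT and 140, 138 and 152 in the KO (log2 difference 0.04, SE 0.12, limma adjusted p = 0.734). The 2 regions of Gm32584 had ratios of 0.945 and 0.764 and neither passed. Lars2, the mitochondrial leucyl-tRNA synthetase, had a ratio of 1.35 (limma adjusted p = 0.0247). The other 6 were 1210 to 1822 bp wide with ratios of 1.72 to 2.37, and all passed: Tardbp, which encodes the RNA-binding protein TDP-43, rose from 41.4 ± 9.27 to 95.1 ± 10.9 (SD, n = 3). The others were 0610009B22Rik, Cactin with Pip5k1c, Cdipt with Cdiptos, Slc35b1 and Med16 with R3hdm4.

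The lowest mean ranks belonged to Ier2, Mbd5, Grk2, Rac1 and Abhd15, at 2.40 to 7.82. A low rank need not be a low level, because rank follows the fold over the local background. Ier2, an immediate early gene, had 2 regions in the set, of 937 and 2443 bp, and the shorter ranked 0.291 to 7.61 although its level was 17.7 ± 2.09 in the WT and 34.8 ± 1.99 in the KO (SD, n = 3).

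Summits lay around the start, on both sides of it. In the 1701 regions with a single RefSeq start, the strongest summit lay a median of 86, 72 and 88 bp downstream in the WT libraries (82 ± 8.72 bp, SD, n = 3) and 69, 69 and 81 bp in the KO (73 ± 6.93 bp), so the groups overlapped. Downstream of the start lay 59.0% ± 1.76 of summits in the WT and 59.7% ± 1.24 in the KO (SD, n = 3), while the fullest bin of 50 bp in both groups was just upstream. The spread was narrower in the KO: the interquartile range was 549, 565 and 530 bp in the WT and 426, 471 and 433 bp in the KO, with no overlap. Within 250 bp of the start lay 44.1% ± 0.967 of summits in the WT and 50.9% ± 1.69 in the KO (SD, n = 3). In the KO, bins of 50 bp held local highs centred at −25, 125, 325 and 475 bp, with 8.90%, 6.58%, 5.47% and 3.45% of summits, and lows between them at 75, 225 and 425 bp, with 4.70%, 3.55% and 2.72%. The WT shared the highs at −25 bp (6.55%) and 325 bp (4.92%), while its share fell from 5.27% to 4.66% between 75 and 125 bp. A summit placed on fewer fragments is less precise, and the part of that in the narrower KO spread was not tested.

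**Figure D3:**
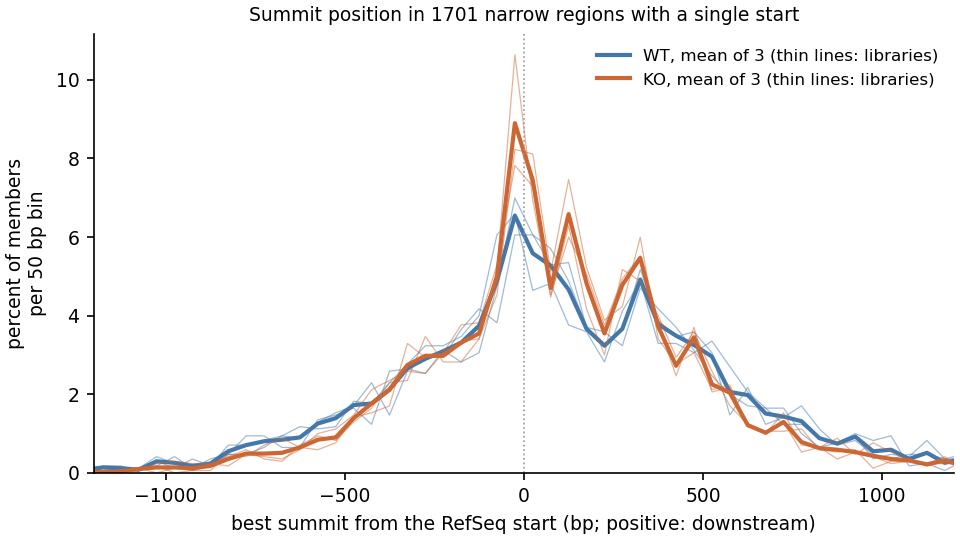
Position of the strongest summit relative to the RefSeq start (bp, positive downstream) in 1701 regions with a single start, as percent of regions per 50 bp bin; thin lines are libraries and thick lines group means. The KO mean reaches 8.90% at −25 bp against 6.55% in the WT, with further highs at 125 and 325 bp.

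Libraries also differed in how well they repeated each other over these regions. Ranks correlated with a Spearman coefficient of 0.336 to 0.359 between WT libraries, 0.617 to 0.696 between KO libraries and 0.322 to 0.404 across genotypes, as a description over the 3028 regions. The strongest summits of a region lay a median of 256 to 262 bp apart between WT libraries and 164 to 182 bp apart between KO libraries. Pileup was lower in every WT library, and its part in these measures was not tested.

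Cytosolic ribosomal protein and splicing factor genes had the highest shares with a narrow region among the lists examined. A region was found for 54 of 84 cytosolic ribosomal protein genes (64.3%) and 43 of 68 splicing factor genes (63.2%), against 17.2% of all protein-coding genes. Intermediate shares were found for PP2A (15 of 30), the proteasome (24 of 49), the respiratory chain and ATP synthase (47 of 96), nucleoporins (10 of 21), replication and cell cycle (19 of 41), aminoacyl-tRNA synthetases (16 of 35), immediate early genes (12 of 27), translation initiation (24 of 55), RNA polymerase and Mediator (24 of 58), DNA repair (12 of 30) and chromatin modifiers (18 of 45). Mitochondrial ribosomal proteins had 29 of 78, DEAD and DEAH box helicases 19 of 52, vesicle traffic 63 of 186, chaperones 26 of 80, ubiquitin-conjugating enzymes 12 of 37 and mitochondrial carriers 15 of 47. Interferon response genes had 8 of 28, glycolysis 5 of 21 and zinc finger genes 86 of 424. Olfactory receptors, which are silent in blood, had 1 of 1107 (Olfr433). The rule chose regions called in all lists, so these shares describe it and were not tested.

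**Figure D4:**
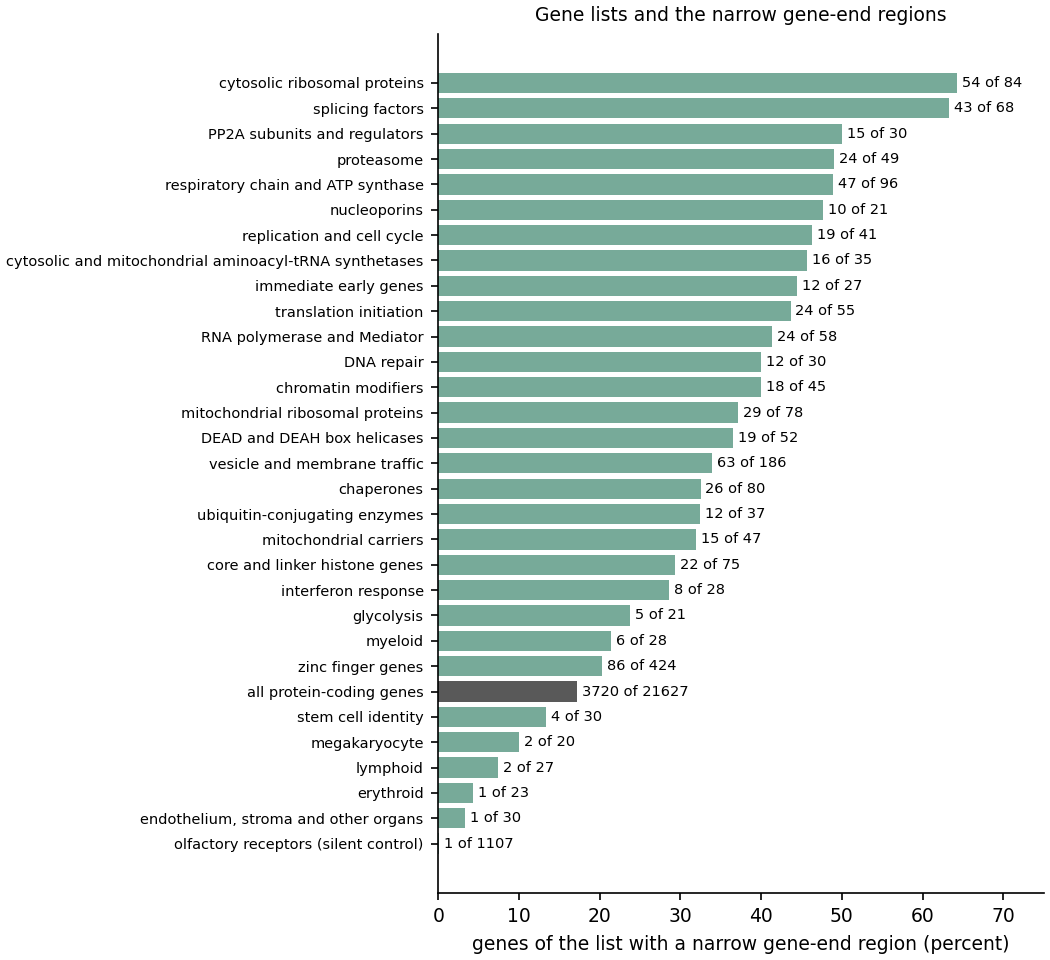
Percent of the genes of each list with a narrow gene-end region in all 6 libraries, with the counts beside the bars; the dark bar is all 21627 protein-coding genes. Ribosomal and splicing genes stand highest at 64.3% and 63.2%, and olfactory receptors lowest, at 1 gene of 1107.

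Ribosomal and splicing regions rose in level, as most shared regions did. Of 55 ribosomal regions, 53 passed the level test upward and 0 downward (beside 86.0% and 0.623% of all shared regions, and 95.5% and 1 of the narrow ones), with a median KO over WT ratio of 2.17, and in 3 regions every KO rank stood above every WT rank, against 3 below (beside 9.95% and 12.4% of all shared regions). These shares are the background for the lists that follow, and a count near them says nothing about a list. Such regions are called apart in rank, upward or downward, from here on. Rps23 rose from 20.2 ± 2.01 to 41.9 ± 2.31 and Rps3 from 17.2 ± 1.53 to 37.1 ± 4.93 (SD, n = 3). Rpl38 and Rps24 did not pass, at ratios of 1.30 and 1.37. All 43 splicing regions passed upward with a median ratio of 2.14. Srsf5, a serine- and arginine-rich splicing factor, rose from 29.1 ± 5.04 to 58.7 ± 7.53, and Prpf8, the core of the spliceosome, from 18.5 ± 4.81 to 47.9 ± 2.52 (SD, n = 3). List members below the 4 highest ranked of their list, such as Ppme1, Strn4, Set and Spi1 further on, were picked after their values had been seen.

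Regions of protein turnover and transcription genes gave these values. All 24 proteasome regions passed upward (beside 86.0% of all shared regions), with a median ratio of 2.31, and 4 were apart in rank upward and 0 downward (beside 9.95% and 12.4% of all shared regions, and 12.7% and 8.19% of the narrow ones). Psmd1, a subunit of the regulatory particle, rose from 30.3 ± 8.91 to 60.0 ± 3.53, and Psmb5, a catalytic subunit, from 13.3 ± 1.06 to 35.5 ± 6.85 (SD, n = 3). All 25 RNA polymerase and Mediator regions passed upward with a median ratio of 2.37, and 6 were apart in rank upward and 0 downward. Med16 ranked highest among them, at 31.1 ± 2.62 in the WT and 60.5 ± 2.32 in the KO (SD, n = 3). Nucleoporins had a median ratio of 2.48 over 10 regions, chromatin modifiers 2.43 over 18 and aminoacyl-tRNA synthetases 2.36 over 16. Of the mitochondrial ribosomal regions 27 of 28 passed upward, and 6 were apart in rank upward and 0 downward. No list was set against the others by a test.

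All 15 PP2A regions passed the level test upward, beside 86.0% of all shared regions and 95.5% of the narrow ones, with a median ratio of 2.25. Ppme1, the methylesterase that inactivates PP2A, had the highest ratio, 3.11, with levels of 10.0, 6.85 and 12.05 in the WT and 33.9, 25.8 and 30.2 in the KO. Strn4, a striatin subunit, had the lowest, 1.43, at 15.4 ± 4.21 and 22.0 ± 1.98. Among the subunits, the scaffold gene Ppp2r1a went from 14.02 ± 2.02 to 25.03 ± 2.99, the regulatory Ppp2r5e from 9.54 ± 2.17 to 24.7 ± 2.87, and Ppp2r3c, which shares its region with Prorp, from 40.3 ± 2.34 to 62.6 ± 7.70 (SD, n = 3). The inhibitors Cip2a and Set rose by ratios of 2.45 and 2.27. Of the PP2A regions 2 were apart in rank upward and 2 downward, beside 9.95% and 12.4% of all shared regions, and the median difference was −3.04 points.

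Stem cell genes with a region had low ranks, which follow the fold over the local background and need not be low levels. Of 30 stem cell identity genes, 4 had a narrow region: Etv6, Tal1, Runx1 and Lyl1, at mean ranks of 9.82 to 23.1. All 4 passed the level test upward at ratios of 1.48 to 1.91, with Runx1 at 24.0, 17.1 and 24.1 in the WT and 35.2, 40.9 and 27.8 in the KO. Beside this, the median level over the narrow regions had a mean of 13.9 in the WT and 29.6 in the KO libraries. Of 28 myeloid genes 6 had a region and 5 of these passed: Spi1, the myeloid regulator PU.1, went from 33.7 ± 3.92 to 47.9 ± 12.8, and Csf3r, the granulocyte growth factor receptor, from 10.6 ± 2.88 to 31.3 ± 1.28 (SD, n = 3). Erythroid genes had 1 of 23 (Tal1 again), megakaryocyte genes 2 of 20, lymphoid genes 2 of 27 (Tcf3, at a mean rank of 95.9, and Igll1) and endothelial, stromal and other organ genes 1 of 30 (Pecam1, adjusted p = 0.135). Of the 2 lymphoid regions Tcf3 passed, and Igll1 did not (13.4 ± 4.20 in the WT and 18.99 ± 3.57 in the KO, SD, n = 3, limma adjusted p = 0.0523). The WT and KO levels overlapped in Pecam1, Itga2b, Igll1, Csf1r and Spi1, although Spi1 passed.

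Histone genes, core and linker, had these values. Of 75 genes, 22 had a narrow region and a further 12 only a wider one, and the 13 narrow regions had a median width of 2094 bp. All 13 passed the level test upward (beside 86.0% of all shared regions), with a median ratio of 1.99. Their median rank difference was −25.6 points, and in 6 of 13 every KO rank was below every WT rank, beside 12.4% of all shared regions and 8.19% of the narrow ones. The gene-end regions of at least 2500 bp also fell in rank. In 45 of these 115 (39.1%) every KO rank was below every WT rank, and their median difference was −18.6 points. H1f5, a linker histone gene, ranked 29.1, 58.4 and 58.1 in the WT and 10.4, 8.46 and 3.28 in the KO while its level went from 22.7 ± 2.31 to 41.0 ± 3.62 (SD, n = 3). None of the 13 passed the rank test after adjustment.

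Most promoters that started inside a region were CpG-rich. Over the 3135 promoter windows whose start lay inside a region, the ratio of observed to expected CpG had a median of 0.840 (quartiles 0.695 and 0.963). The median was 0.573 over all 21019 windows and 0.303 over 11788 windows that no peak of any library overlapped. The ratio was at least 0.6 in 84.5% of the regions' windows, 48.1% of all windows and 26.02% of those without a peak. The 135 windows of the wider gene-end regions were alike, with a median ratio of 0.870 and 85.9% at 0.6 or more. In Ppp2ca the ratio was 0.904, in Uxt 0.913 and in Runx1 0.137.

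Some motif letters were more frequent than in promoters at large. The ETS core CCGGAA was in 39.1% of the regions' windows, 18.9% of all windows, 7.44% of windows without a peak and 27 of the 135 windows of wider gene-end regions. Among CpG-rich windows alone, with a ratio of at least 0.6, the shares were 42.1% in the regions, 30.8% in all and 13.6% without a peak. The YY1 core was in 5.51%, 3.50% and 0.65% of CpG-rich windows in that order, the cAMP response element in 5.51%, 3.73% and 2.02%, and the NRF1 core in 7.85%, 6.39% and 4.17%. The GC box did not follow this order, at 71.1%, 74.2% and 75.2%. Without the limit to CpG-rich windows, the YY1 core was in 4.75% of the regions' windows and 5.19% of those of the wider gene-end regions. Over all windows, letters of other kinds were less frequent in the regions: TATAAA was in 6.92% against 12.7% of all, the GATA letters AGATAA in 5.68% against 9.69%, the RUNX letters in 11.0% against 14.7% and the AP-1 letters TGANTCA in 3.89% against 7.04%. Among CpG-rich windows alone this direction turned, with small differences: TATAAA was in 6.30% against 5.57% of all, the GATA letters in 4.68% against 4.29%, the RUNX letters in 9.74% against 9.30% and the AP-1 letters in 3.62% against 3.45%. All shares count either strand in windows of 300 bases, and genes with several starts count once per window.

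**Figure D5:**
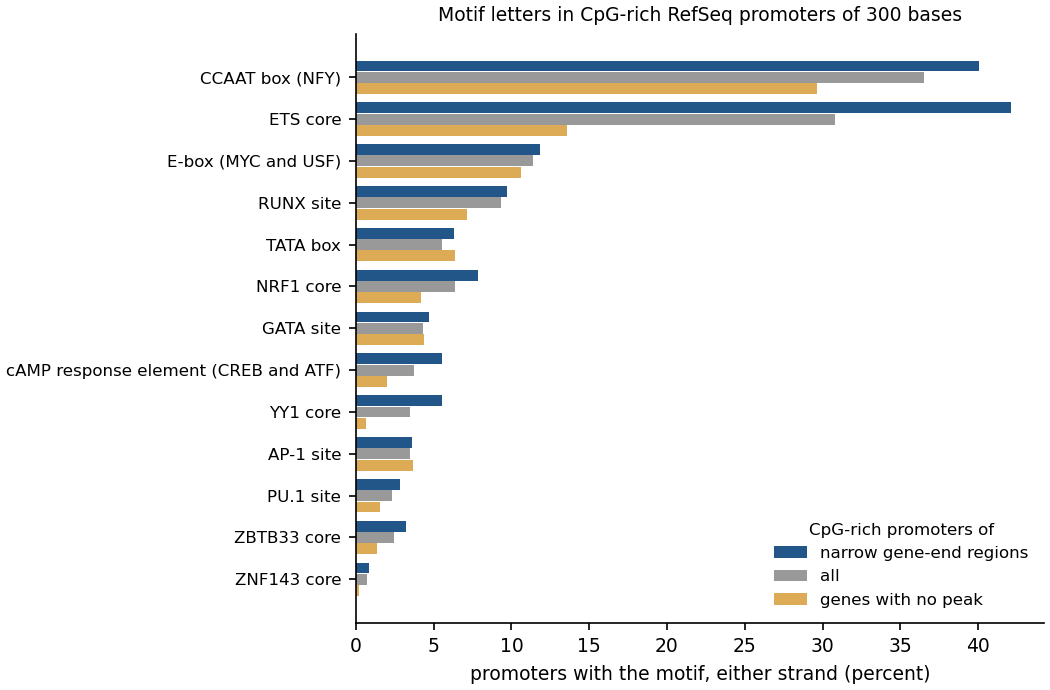
Percent of CpG-rich RefSeq promoter windows that hold each motif, for narrow gene-end regions, all windows and windows that no peak of any library overlapped. The last are labelled in the figure as genes with no peak. The ETS core is at 42.1%, 30.8% and 13.6% in that order.

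Regions with and without a motif had these values. The 976 regions with an ETS core had a median KO over WT ratio of 2.15 and the 1353 without one 2.08. The 125 regions with a YY1 core had a median rank of 61.2 in the WT and 70.5 in the KO and a ratio of 2.28, against 52.1, 61.6 and 2.11 in the other 2204. CpG-rich and CpG-poor regions had ratios of 2.14 and 1.93, with median KO ranks of 63.6 and 52.4. The 67 regions at a far-side end alone had a ratio of 1.71 and the head-to-head regions 2.20. These medians are descriptions over regions, which are not replicates.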

How the data were processed

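H3K27ac CUT&RUN was read from 6 peak lists, 1 per library, on GRCm38 (mm10). The submitters' processing notes name HOMER, ChIPseeker, deepTools, MACS2, BWA and Trimmomatic, without versions or settings; use of a control was not stated in the labels. In the deposited lists the authors give each peak an integer score, a fold (ratio) over the local background at the summit, a −log10 p-value, a −log10 q-value and a summit offset in bp, the last of no other unit. Peaks were called per library, not on pooled samples.

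Whole-number summit pileups and both backgrounds were solved from the deposited fold, taken as (pileup + 1) over (background + 1), and −log10 p-value, taken as a Poisson tail (tolerance 0.002, all of 4000 sampled peaks per list solved). No read depth is given, so depth is known only as the recovered genome background, the most common value among the sampled peaks of a list. Each region took its strongest peak per library. Percentile ranks of the authors' fold among the 5489 shared regions, and log2 levels, were fitted with limma 3.58.1 (R 4.3.3) across all shared regions, with Benjamini-Hochberg adjustment and a threshold of 0.05. Code was tested on simulated data. Gene ends came from the RefSeq gene table and starts from its promoter windows.

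The named regions were Ppp2ca, the 10 highest and 5 lowest mean ranks, the 5 widest rises and 5 widest falls in rank without overlap (since none passed), up to 4 members of each gene list, and the widest regions. Members and lists were chosen with earlier results of these data known. Alternatives covered merging, reach, width, q-value, the ranked measure, the fit and leaving out each library. All 6 libraries were used. A few regions and genes that these rules name are not reported here.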

Additional observations from a re-analysis of the deposited data

How the results depend on the processing

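Of 80 alternative values of the counts and medians over the regions, 69 were close to the reported value and 11 moved. Close means within 1.5 times for a count of regions and within 1 SD between libraries for a mean or median. Leaving out 1 library always moves a mean over the 3 libraries of a genotype by less than 1 SD. A count of regions with every KO above every WT library cannot fall when a library is left out, and is capped by the 3028 regions. Such values among the 69 were close by construction and do not show stability. The set shrank from 3028 to 735 regions when peaks needed a q-value of 0.05 or lower, and held 3011 to 3611 regions when each library was left out in turn. Rank calls were 0 higher and 0 lower, also with each library left out. Normal scores gave 1 higher, the log2 fold centred on the shared regions 38 higher and 13 lower, and the uncentred log2 level, added after the data had been seen, 2891 higher and 1 lower. The calls with normal scores and with the centred log2 fold were counted over the narrow regions only. With a replicate block the rank calls were 0 and 0, and at an unadjusted p under 0.05 the counts were 270 higher and 132 lower in place of 297 and 157. The deviations of same-numbered libraries correlated at −0.0145, −0.0033 and −0.0053, and those of other pairs at −0.0044 to 0.0097. No label says what a number marks, and these values cannot decide whether the numbers pair the libraries.

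At a q-value of at most 0.01, the mean number of regions passing fell from 2978.67 to 2867.33 in the KO and from 1536.67 to 979.333 in the WT. With a library left out, the means at 0.05 were 2960 to 3011.5 and 1448 to 1582. The authors' fold, also added later, gave 1253 regions with every KO above every WT library in place of 2835 and a median ratio of 1.25 in place of 2.08, and regions past 0.05 in every library gave 1.98. Leaving out a library gave 2862 to 2898 regions, a count that can then only stay or rise, and median ratios of 2.05 to 2.12. Called length per region was 1149 to 1277.75 bp in the KO and 568.5 to 605 bp in the WT with a library left out. In 2136 to 2578 regions every remaining KO library was then longer, a count that likewise could not fall. Both counts were made over the narrow regions only. The rank difference of Ppp2ca, 2.502 points, turned to −0.371 with ranks among gene-end regions and to −9.88 without WT replicate 2, within a range of −9.88 to 10.3 over the libraries left out. The causes were not tested. WT pileups of a few fragments limit the precision of single regions.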
